A study of Mus musculus with 6 samples.

Results

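In infarcted mouse heart muscle, 7 genes were followed that move phosphate across membranes or control whether calcium phosphate forms in tissue. They are Slc20a1, Slc20a2, Xpr1, Enpp1, Nt5e, Alpl and Mgp, and were found by their symbols, 7 of 16199 genes in the authors' table. Slc20a1 was selected on its measured values, being higher in labelled knockdown than in wild type, and the other 6 for their roles beside it with the results known. The values of Slc20a1 are therefore a description and carry no test. All 7 averaged 1 or more and were among the 14025 genes analysed.

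The libraries were poly(A)-enriched RNA from mouse myocardium 7 days after the left anterior descending coronary branch was tied off. The labels call 3 libraries wild type and 3 ITIH5 knockdown. Both groups had the same ligation, and no unoperated heart is analysed here. The sources used here do not give how the knockdown was made, or the strain, age and sex of the mice. Whether replicate libraries are separate animals is not stated, so the p-values measure the spread between libraries, which may be technical. The values are a score close to TPM, a length-corrected share of the transcripts, so levels can be set side by side between genes. The number of reads behind them is unknown.

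Inorganic phosphate enters most cells through the sodium-coupled transporters PiT-1 (Slc20a1) and PiT-2 (Slc20a2), and leaves through the exporter XPR1. Outside the cell, ENPP1 splits ATP into AMP and pyrophosphate, which blocks the growth of calcium phosphate crystals. CD73 (Nt5e) turns that AMP into adenosine and phosphate, and tissue non-specific alkaline phosphatase (Alpl) destroys the pyrophosphate. Matrix Gla protein (Mgp), made active by vitamin K, is a local inhibitor of calcification. Loss of ENPP1, CD73 or matrix Gla protein is known to cause calcified arteries, and loss of PiT-2 or XPR1 function causes calcification in the brain.

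The sequence before the Slc20a1 start site is shown because Slc20a1 is the gene whose libraries separated. It is the 250 bases upstream of the first RefSeq start, on the plus strand at chr2:129198523-129198772 of GRCm38.p6, the same build as mm10. Capitals mark 3 motifs that were searched on both strands: the E-box CACGTG, the CCAAT box CCAAT and the GC box GGGCGG.
Slc20a1 upstream sequence: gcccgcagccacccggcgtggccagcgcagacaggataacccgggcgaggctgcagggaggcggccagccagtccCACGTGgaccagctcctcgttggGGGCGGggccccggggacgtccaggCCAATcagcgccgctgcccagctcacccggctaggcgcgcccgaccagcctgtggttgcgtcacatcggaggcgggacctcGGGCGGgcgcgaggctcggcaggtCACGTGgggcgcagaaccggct
The E-box stands in it at 175 and at 22 bases before the start, and the CCAAT box stands at 127. The GC box stands at 152 and at 46. The window is 75.2% G and C, where the median of all 32851 RefSeq windows is 52.4% and the first windows of the other 4 matched genes hold 57.6% to 72.0%. RefSeq gives Slc20a1 a second start inside the gene, whose window (chr2:129206846-129207095) is 50.8% G and C and holds 1 GC box, 0 E-boxes and 0 CCAAT boxes. CACGTG occurs in 6.02% of those windows, CCAAT in 33.8% and GGGCGG in 32.7%. Windows were matched for 5 of the 7 genes, namely Slc20a1, Xpr1, Enpp1, Nt5e and Alpl. Among these genes CACGTG was found for Slc20a1 alone, CCAAT for Slc20a1 and Xpr1, and GGGCGG for all 5. The TATA box TATAAA, searched too, occurs in 12.4% of windows and was found only in a second window of Alpl. A match of letters is not evidence that a factor binds there.

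Itih5, the targeted gene, was not lower in the libraries labelled knockdown. It measured 9.73, 13.1 and 17.2 across wild type (replicates 1, 2 and 3, the order used throughout) and 18.4, 10.5 and 20.0 across labelled knockdown (limma adjusted p = 0.645). Directions below therefore refer to the labels. Column sums ran from 901558 to 1159651, and low values came in steps of 0.889 to 1.16 that differ by library. In labelled knockdown replicate 1, 1077 values above 0 lay far below 1 step, where each other library had 0 such values. It held 211 zeros, and the other libraries 731 to 1080. By markers, the libraries labelled knockdown were not alike. All 8 heart muscle markers were present in every library and had higher means, with summed values of 6987 to 8106 in wild type and of 22475, 11474 and 6724 in labelled knockdown replicates 1, 2 and 3. All 8 macrophage markers had lower means, and their sum was 7328 to 9884 against 3399, 6844 and 5747. The 6 adipocyte markers summed to 488 to 1401 in wild type but to 4.9 and 11.7 in labelled knockdown replicates 1 and 2 and to 1472 in replicate 3. In bulk tissue, fewer cells of a type and less RNA per cell cannot be told apart.

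Slc20a1, the sodium-phosphate importer PiT-1, was higher in every library labelled knockdown than in any wild-type library. It measured 39.0, 41.1 and 29.2 across wild type and 67.9, 61.7 and 68.9 across labelled knockdown. The lowest library labelled knockdown stood 1.50 times above the highest wild-type library. Mean values were 36.5 ± 6.34 (SD, n = 3) in wild type and 66.2 ± 3.87 (SD, n = 3) in labelled knockdown, a ratio of 1.81. On the scale of log2(value + 1) the difference was 0.86 (SE 0.14). Expressed in each library's own step, the values were 40.0, 44.1 and 32.9 against 58.3, 64.3 and 69.0, and the groups stayed apart. Differences at least as large in that direction were found for 1.40% of the 14025 genes, and the groups did not overlap for 12.6% on the higher side. Because Slc20a1 was selected for this difference, nothing is read from those shares. Slc20a1 lies at chromosome 2, from 129198764 to 129211616 on the plus strand, and is protein coding. On the opposite strand it overlaps the unnamed models Gm4430 and 9830144P21Rik, and without a stated strand setting their reads could be counted with it.

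**Figure D1:**
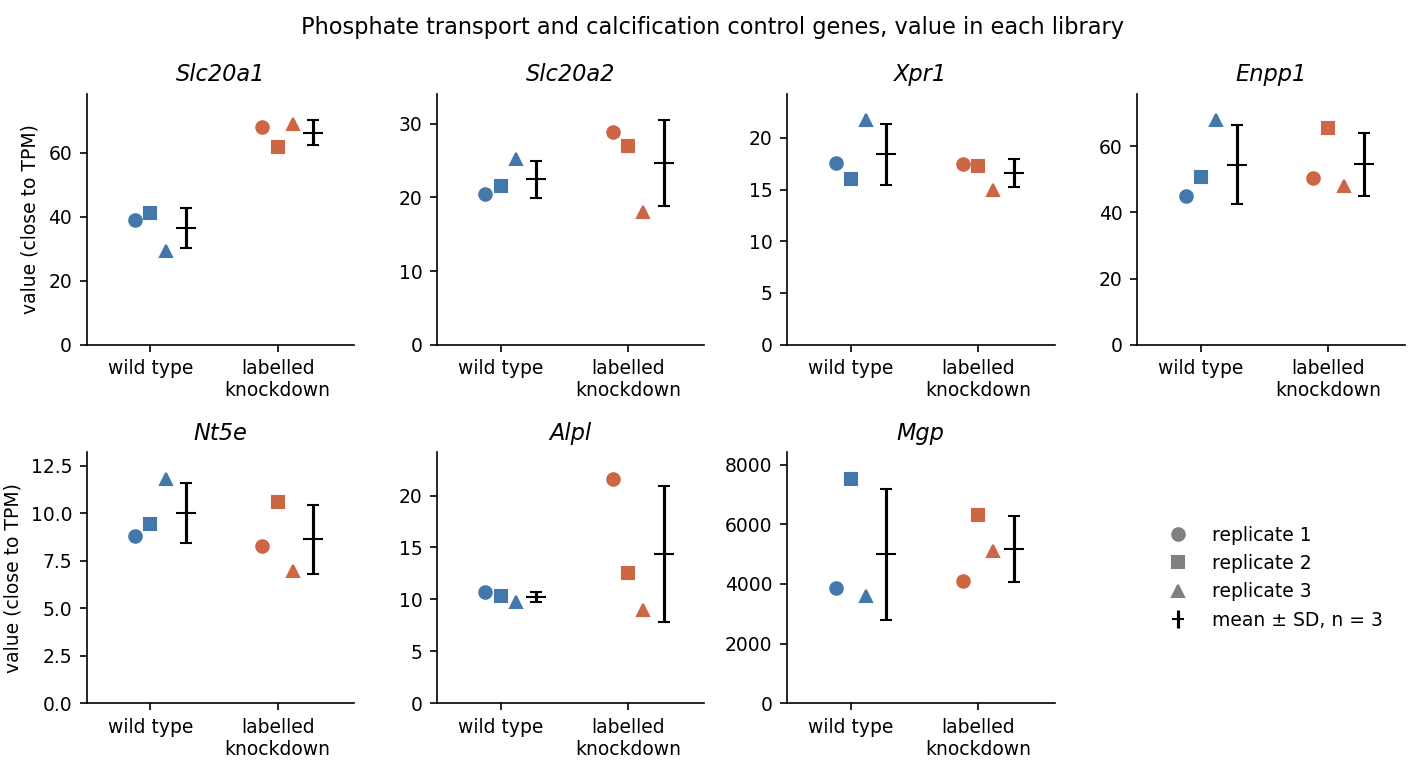
Value of each gene in each library (y axis, a score close to TPM, starting at 0), with wild type in blue, labelled knockdown in orange, one symbol per replicate and the mean ± SD of 3 libraries in black. Only for Slc20a1 do the groups stand apart, at 29.2 to 41.1 against 61.7 to 68.9; for the other 6 genes they overlap.

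Slc20a1 is set here beside the marker sums of the same libraries. Labelled knockdown replicate 3 had the highest Slc20a1 (68.9) and the lowest heart muscle sum of all 6 libraries (6724). Labelled knockdown replicate 1 had nearly the same Slc20a1 value (67.9) at the highest heart muscle sum (22475). That likeness depends on the scale of the libraries: in steps, replicate 3 stood at 69.0 and replicate 1 at 58.3, the highest and the lowest of labelled knockdown. The adipocyte sums of these libraries were 1472 and 4.9. Macrophage sums were lower in all 3 libraries labelled knockdown (3399 to 6844) than in any wild-type library (7328 to 9884). Within the groups the order was not steadily opposite to that of Slc20a1. The highest wild-type Slc20a1 (replicate 2, 41.1) came with the lowest sum (7328), but the lowest (replicate 3, 29.2) came with 7438. In labelled knockdown the lowest Slc20a1 (replicate 2, 61.7) came with the highest sum (6844), but the highest (replicate 3) came with 5747, above replicate 1 (3399). The part of these cell markers in the Slc20a1 difference was not tested.

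**Figure D2:**
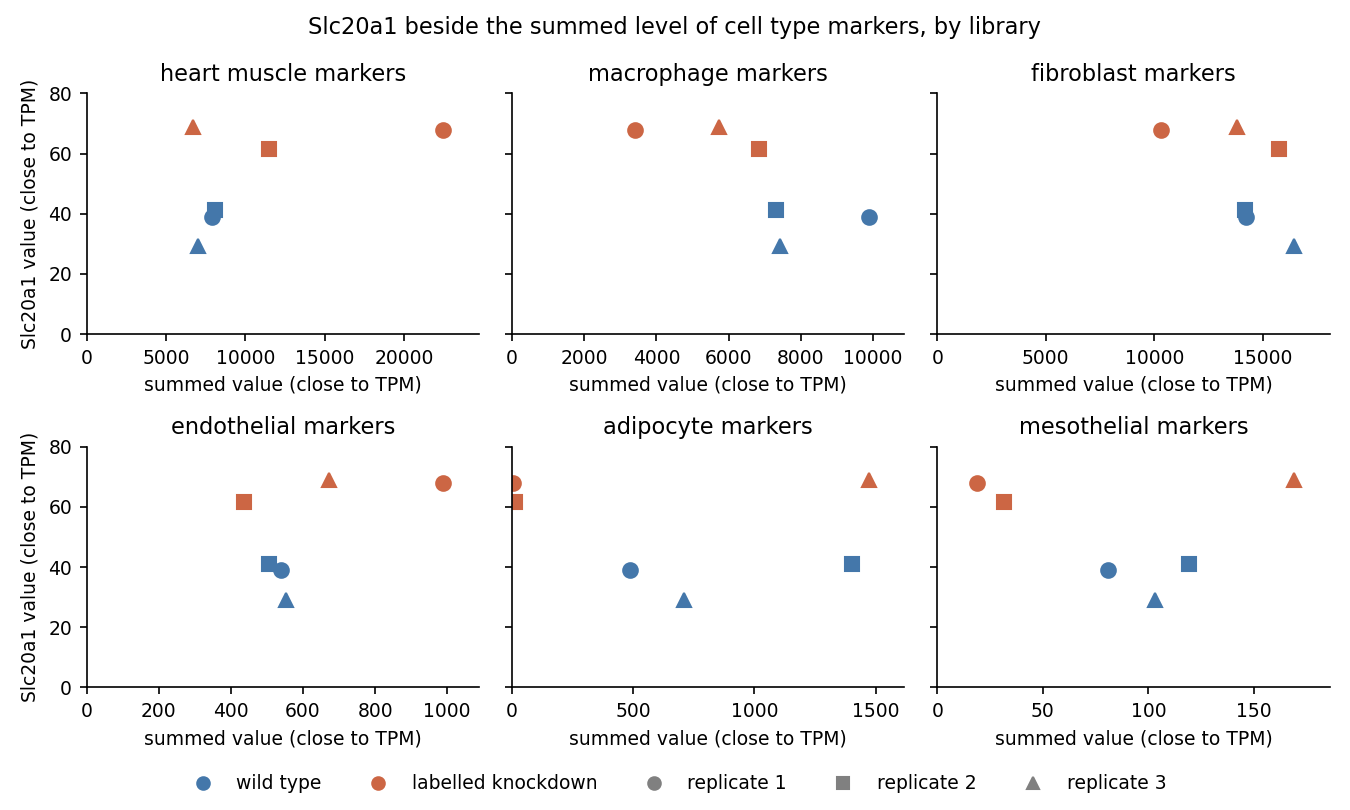
Slc20a1 value (y axis) against the summed value of 6 marker lists (x axes, both close to TPM and starting at 0), one point per library. The 3 libraries labelled knockdown (orange) lie at 61.7 to 68.9 on the y axis, with heart muscle sums of 6724 to 22475, and the macrophage sums of the groups do not overlap.

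Slc20a2, which encodes the other importer PiT-2, overlapped between the groups. It measured 20.5, 21.6 and 25.2 across wild type and 28.9, 27.0 and 18.0 across labelled knockdown. By value, labelled knockdown replicates 1 and 2 were the highest of the 6 libraries and replicate 3 the lowest. In steps, wild-type replicate 3 was the highest (28.3), followed by labelled knockdown replicates 2 (28.1) and 1 (24.9), and labelled knockdown replicate 3 was still the lowest (18.0). The log2 difference was 0.10 (95% interval -0.33 to 0.54, limma adjusted p = 0.791). Each library also gives the balance of the 2 importers, which any rescaling of that library leaves as it is. Slc20a1 stood at 1.90, 1.90 and 1.16 times Slc20a2 across wild type and at 2.35, 2.29 and 3.83 times across labelled knockdown. On the log2 scale the mean ratio was 0.69 ± 0.41 (SD, n = 3) against 1.45 ± 0.42 (SD, n = 3). The highest ratio, in labelled knockdown replicate 3, came with the lowest Slc20a2, and since Slc20a1 was chosen for its pattern this ratio has no test. Slc20a2 spans 22476788 to 22569612 on the plus strand of chromosome 8, and overlaps the protein-coding gene Smim19 on the other strand.

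Xpr1, which encodes the phosphate exporter, measured 17.6, 16.0 and 21.7 across wild type and 17.5, 17.3 and 15.0 across labelled knockdown. Wild-type replicate 3 was the highest, labelled knockdown replicate 3 the lowest, and the other 4 lay within 16.0 to 17.6. The log2 difference was -0.14 (95% interval -0.45 to 0.18, limma adjusted p = 0.615). Xpr1 lies on the minus strand of chromosome 1, from 155275701 to 155417415.

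The enzymes that make and remove pyrophosphate did not pass the test. Enpp1 measured 44.9, 50.7 and 67.8 across wild type and 50.3, 65.5 and 47.9 across labelled knockdown. Both groups held 1 high library, with wild type averaging 54.5 ± 11.9 (SD, n = 3) and labelled knockdown 54.6 ± 9.56 (SD, n = 3). The log2 difference was 0.01 (95% interval -0.42 to 0.44, limma adjusted p = 0.979). Enpp1 was, after Mgp, the most abundant of the 7 by its mean over all libraries (54.5), close to Slc20a1 (51.3) and above Slc20a2 (23.5), Xpr1 (17.5), Alpl (12.3) and Nt5e (9.31). The order of Enpp1 and Slc20a1 differed between the groups: Enpp1 was above Slc20a1 in all 3 wild-type libraries, and in 1 of the 3 labelled knockdown, replicate 2. Enpp1 lies on chromosome 10, from 24637914 to 24712159 on the minus strand.

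Nt5e, which encodes the AMP-splitting enzyme CD73, measured 8.80, 9.43 and 11.8 across wild type and 8.26, 10.6 and 6.98 across labelled knockdown. The groups overlapped, with labelled knockdown replicate 2 above 2 of the wild-type libraries. The log2 difference was -0.20 (95% interval -0.61 to 0.20, limma adjusted p = 0.562). These values amount to only 7.0 to 13.3 rounding steps, which limits what Nt5e can show. Its position is chromosome 9, from 88327197 to 88372092 on the plus strand.

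Alpl, which encodes the pyrophosphate-destroying phosphatase, measured 10.7, 10.3 and 9.75 across wild type and 21.6, 12.5 and 8.98 across labelled knockdown. Wild type was tight, and the libraries labelled knockdown ran from the lowest to the highest of all 6. The log2 difference was 0.36 (95% interval -0.28 to 1.01, limma adjusted p = 0.515), and it was 0.04 without labelled knockdown replicate 1. That replicate also had the highest heart muscle sum (22475) and the highest sum of endothelial markers, at 989.6 where the other 5 libraries had 437 to 671. The part of these markers in the Alpl value was not tested. Alpl lies on chromosome 4, from 137741733 to 137796384 on the minus strand.

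The ratio of Enpp1 to Alpl sets the enzyme that makes pyrophosphate beside the one that removes it. It was 4.18, 4.92 and 6.96 across wild type and 2.33, 5.25 and 5.33 across labelled knockdown. Labelled knockdown replicate 1 was the lowest, and the other 2 lay within the wild-type range. The mean log2 ratio differed by -0.38 between the groups and by 0.02 without that library.

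Mgp, the calcification inhibitor, was by far the most abundant of the 7 and lay at the 99.9th percentile of all tested genes by its mean. It measured 3877, 7521 and 3582 across wild type and 4091, 6323 and 5102 across labelled knockdown. By value, the libraries labelled knockdown lay inside the wild-type range. In steps, labelled knockdown replicate 1 (3517.1) fell below the lowest wild-type library (3979.0). The log2 difference was 0.11 (95% interval -0.69 to 0.91, limma adjusted p = 0.881), the widest interval of the 6 tested members. Mgp is on chromosome 6, from 136872435 to 136875823 on the minus strand.

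**Figure D3:**
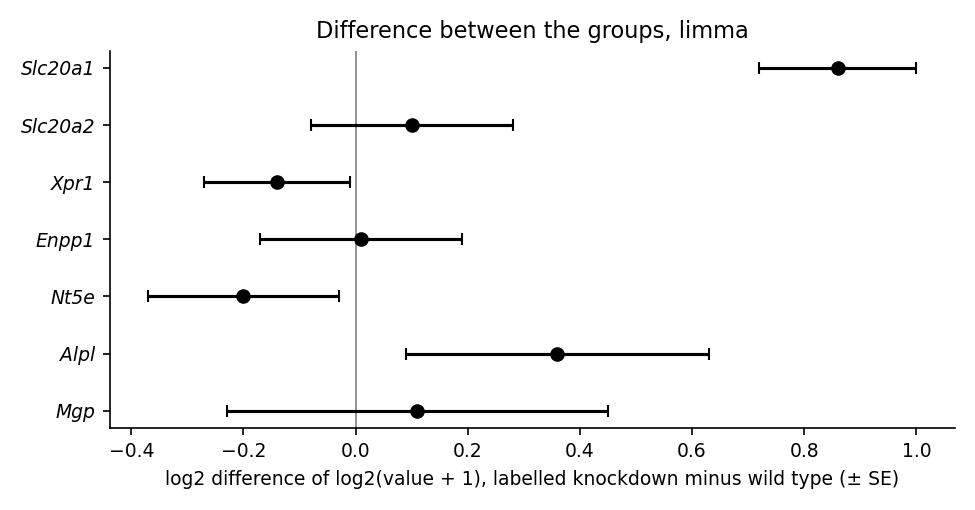
Log2 difference of log2(value + 1), labelled knockdown minus wild type, for each of the 7 genes (points) with its SE (bars) from limma. Slc20a1 is at 0.86, and the other 6 lie between -0.20 and 0.36.

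Of the 6 members other than Slc20a1, 0 passed limma's test with Benjamini-Hochberg adjustment over all genes, where 0% of all 14025 genes passed in either direction and 14.8% had an unadjusted p under 0.05. None of the 6 had an unadjusted p under 0.05 (0 of 6), and their groups overlapped for all 6, where 22.4% of all genes did not overlap. Means were higher for 4 of the 6 and lower for 2, where 50.8% and 49.2% of all genes were. When each library was rescaled to sum to 1000000, 1 of the 6 had a higher and 5 a lower mean. Their median log2 difference was 0.06, and that of all genes 0.00. The 95% intervals of Slc20a2, Xpr1, Enpp1 and Nt5e together reach from -0.61 to 0.54 on the log2 difference scale, and a missed threshold does not show that the groups were alike.

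The 5 genes whose pattern over the 6 libraries was most like that of Slc20a1 were Hnrnph3, Ccdc82, Mdm4, Tmem150a and Snrnp48, with Pearson's r of 0.998, 0.997, 0.995, 0.993 and 0.993 among 10592 genes averaging 5 or more. Hnrnph3 encodes an RNA-binding protein, Mdm4 a p53 inhibitor and Snrnp48 a protein of the minor spliceosome. Hnrnph3 measured 27.3, 29.0 and 23.2 across wild type and 39.2, 37.6 and 38.9 across labelled knockdown. An r over libraries of 2 separated groups includes the gap between them, and 4.31% of the 10592 genes had an r above 0.9. The r was taken on the authors' rescaled values, so it also includes the scale of each library. In steps, the groups of Tmem150a overlapped (41.1, 44.3 and 40.4 against 40.7, 47.2 and 48.0). The others stayed apart, Ccdc82 narrowly (22.1 against 22.8). Among the 7 genes themselves, the closest pair was Enpp1 and Nt5e (r = 0.83 over 6 libraries) and the next Xpr1 and Nt5e (0.79), while Slc20a1 and Slc20a2 stood at 0.06.

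Other genes of phosphate handling and calcification were taken from 6 lists with 83 symbols, of which 56 genes were tested. With limma adjusted over all genes, 0 of the 56 passed in either direction, where 0% of all 14025 genes did. An unadjusted p under 0.05 was found for 10 of the 56, where 14.8% of all genes had one. Means were higher for 26 (20 when each library was rescaled to sum to 1000000) and lower for 30, and the median log2 difference was -0.11. The groups did not overlap for 6 on the higher side and 5 on the lower side, where 12.6% and 9.88% of all genes did so.

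Inositol pyrophosphates are the signals that bind the SPX domain of XPR1 and set phosphate export. The list of enzymes that make or remove them, or make their precursors, held most of the genes without overlap on the higher side. Of 8 tested, 6 had higher means, 5 did not overlap (12.6% of all genes), and the median log2 difference was 0.20. Ppip5k1, a kinase that makes the doubly pyrophosphorylated form, measured 7.80, 7.47 and 7.04 across wild type and 18.1, 10.6 and 11.0 across labelled knockdown. Its log2 difference was 0.72 (SE 0.20, limma adjusted p = 0.296), and in steps it was 8.0, 8.0 and 7.9 against 15.6, 11.0 and 11.0.

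Ip6k1, one of the kinases that make the singly pyrophosphorylated form, was at 57.6, 63.8 and 49.3 against 75.1, 70.4 and 69.9 (log2 difference 0.34, limma adjusted p = 0.300). Ppip5k2 was at 11.7, 11.2 and 13.4 against 19.5, 14.4 and 15.0 (log2 difference 0.39, limma adjusted p = 0.305). Ip6k2 measured 28.3, 30.0 and 23.3 across wild type and 33.5, 32.8 and 32.9 across labelled knockdown (log2 difference 0.28, limma adjusted p = 0.321). In steps the groups of these 3 genes met or overlapped. Ppip5k2 was at 15.1 steps in wild-type replicate 3 and at 15.0 in labelled knockdown replicates 2 and 3, Ip6k1 reached 68.5 steps in wild type and started at 64.5 in labelled knockdown, and Ip6k2 reached 32.2 and started at 28.8. Ippk, the fifth without overlap, makes a precursor and was at 5.0 to 6.1 steps in both groups. By value, Ppip5k1, Ppip5k2, Ip6k1 and Ip6k2 were all highest in labelled knockdown replicate 1. In steps this held for Ppip5k1 (15.6) and Ppip5k2 (16.8) only. Ip6k1 (64.5 against 73.3 and 70.0) and Ip6k2 (28.8 against 34.2 and 33.0) were in steps lower there than in labelled knockdown replicates 2 and 3. Labelled knockdown replicate 1 also had the highest heart muscle (22475) and endothelial (989.6) sums and the lowest macrophage sum (3399). The part of these markers in the 4 genes was not tested. When each library was rescaled to sum to 1000000, 2 of the 8 did not overlap on the higher side, Ppip5k1 and Ppip5k2, where 5.92% of all genes did so. Ppip5k2 was apart there by less than a rounding step, since its nearest libraries stood at 15.1 and 15.0 steps.

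Among the other carriers, 4 genes were tested, 2 with higher and 2 with lower means. Slc37a2, a sugar-phosphate exchanger of macrophages, measured 28.4, 19.7 and 22.7 across wild type and 10.8, 20.3 and 15.0 across labelled knockdown (log2 difference -0.62, limma adjusted p = 0.310). Slc25a3, the mitochondrial phosphate carrier, was at 0.22 and Kidins220, a partner of XPR1, at 0.15 on the log2 difference scale. Slc37a2 was lowest in labelled knockdown replicate 1, where the macrophage sum was lowest too (3399), and the part of macrophages in it was not tested. Of the hormone and receptor genes, 7 were tested and 0 were free of overlap, where 22.4% of all genes were. The log2 differences of the 3 with the smallest p were -0.30 for the parathyroid hormone receptor gene Pth1r, 0.35 for the stanniocalcin gene Stc2 and -0.38 for the vitamin D receptor gene Vdr.

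Genes of pyrophosphate and extracellular nucleotides were tested for 15 symbols, 7 higher and 8 lower by mean, with a median log2 difference of -0.17. Ppa1, a cytosolic pyrophosphatase, measured 91.8, 102 and 98.6 across wild type and 71.2, 81.9 and 89.8 across labelled knockdown (log2 difference -0.27, limma adjusted p = 0.330). Entpd1, the CD39 gene whose enzyme supplies AMP to CD73, was at 48.9, 46.0 and 44.3 against 36.2, 42.4 and 39.9 (log2 difference -0.23, limma adjusted p = 0.331). These 2 of the 15 were the genes of the list without overlap, both on the lower side. Of all genes, 9.88% were without overlap on that side. Ank, which encodes the membrane protein that brings pyrophosphate precursors out of the cell, measured 39.1, 42.3 and 39.5 across wild type and 48.7, 56.9 and 36.9 across labelled knockdown, with overlap (log2 difference 0.21, limma adjusted p = 0.508). Enpp3, a relative of Enpp1, was at -0.73 (SE 0.32) with overlap.

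Among vitamin K cycle and inhibitor genes, 9 were tested, 2 higher and 7 lower by mean. Spp1, the gene of osteopontin, a phosphoprotein that binds calcium phosphate crystals and is abundant in macrophages of infarcts, measured 2296, 1444 and 1530.3 across wild type and 417, 1161 and 995 across labelled knockdown. The groups did not overlap, and its log2 difference was -1.13 (SE 0.40, limma adjusted p = 0.302). Its lowest library, labelled knockdown replicate 1, also had the lowest macrophage sum (3399), and the part of macrophages in it was not tested. Gas6 and Fbn1 were at -0.28 and -0.30 on the log2 difference scale.

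Of 13 genes of bone formation and bone resorption, 6 were higher and 7 lower by mean. Runx2, the bone master regulator, measured 5.86, 5.63 and 7.24 across wild type and 4.77, 7.72 and 4.99 across labelled knockdown, with overlap. Tnfsf11, which encodes the osteoclast factor RANKL, was at 1.96, 1.88 and 3.71 against 0.0578, 0.949 and 0.997 (log2 difference -1.10, limma adjusted p = 0.298), which is 2.0 to 4.2 steps against 0.0 to 1.0. Msx1 was at 7.80, 7.46 and 6.18 against 13.6, 8.66 and 8.98 (log2 difference 0.47, limma adjusted p = 0.318), and Tnfrsf11a, the receptor of RANKL, at -0.38. Of the 8 cartilage and bone markers, Acan, Col2a1, Comp and Chad were tested, 1 with a higher and 3 with a lower mean and 0 past the test. Acan, the gene of the cartilage proteoglycan aggrecan, measured 25.4, 28.3 and 25.5 across wild type and 8.64, 22.2 and 15.0 across labelled knockdown, without overlap (log2 difference -0.84, SE 0.29, limma adjusted p = 0.301). Not analysed here were Sp7, Ibsp, Bglap and Dmp1.

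**Figure D4:**
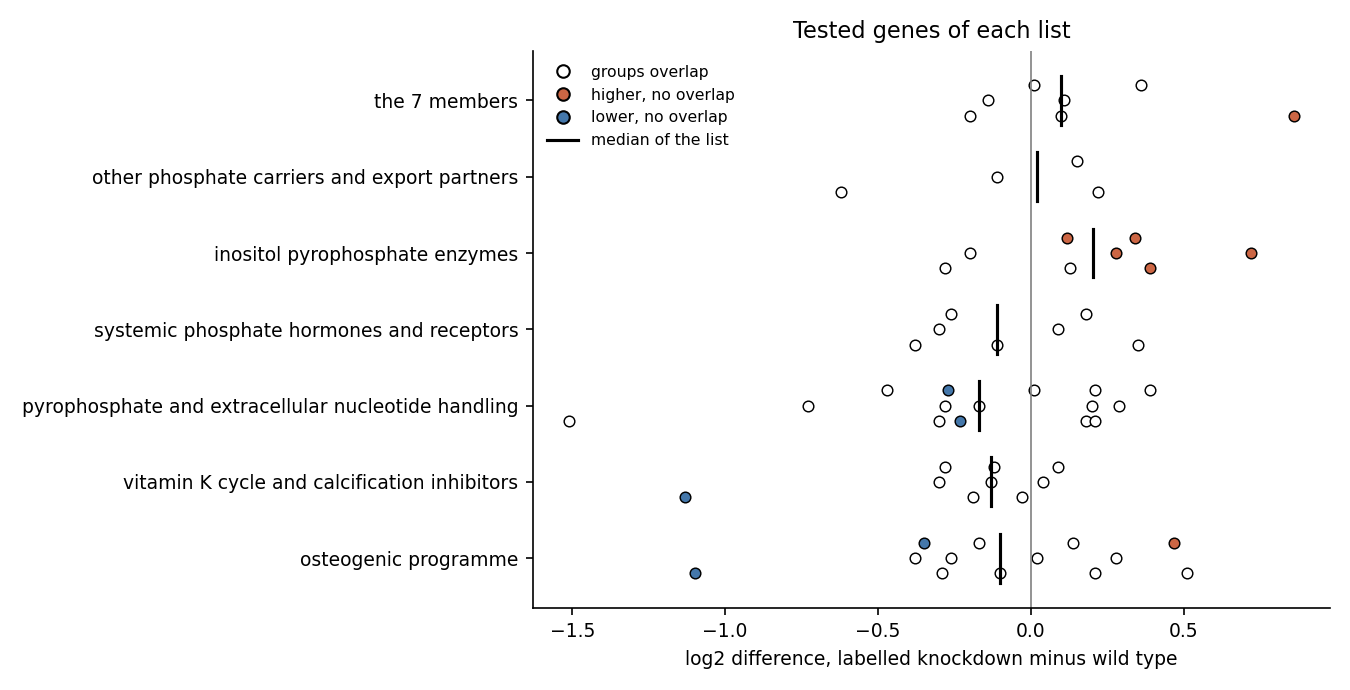
Log2 difference, labelled knockdown minus wild type (x axis), of each tested gene of the 7 members and 6 further lists (rows), filled where the groups do not overlap, with the list's median as a bar. Slc20a1 is at 0.86, Ppip5k1 at 0.72 and Spp1 at -1.13.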

How the data were processed

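RNA was sequenced from 6 libraries of infarcted mouse myocardium, 3 per group, with groups and replicate numbers taken from the sample titles. The deposited table has 16205 gene rows, each with a score per library that its name calls TPM; the scores had been rescaled between libraries by the authors. The submitters' processing notes name mm10. The labels' protocols name 2 library kits. The rescaling, aligner, quantifier and strand setting: not given in the sources used here.

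Where symbols repeated, the row of highest mean was kept, leaving out 6. The step of a library is the median of its values between 0.5 and 1.5. The 14025 genes averaging 1 or more were put on the log2(value + 1) scale and compared in R 4.3.3 by limma 3.58.1 (intensity trend, no covariate, Benjamini-Hochberg adjustment at 0.05). A fold change on that scale understates the change of low genes. The fit was tested on simulated data. This test was planned for TPM and used for the rescaled score. The depth is unknown.

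The 7 genes and all lists were chosen with earlier results of these data known. Named genes are the 7 members, Itih5, up to 3 genes with the smallest unadjusted p in each other list, the 5 most like Slc20a1, and markers by list; Ippk, Ip6k2, Ank, Runx2 and the cartilage and bone markers were named after their values were seen. Marker lists also covered neutrophils, fibroblasts, mural, mesothelial and B cells. Promoter windows come from RefSeq on GRCm38.p6 and coordinates from GENCODE M21 on the same build. The alternatives were 2 other pseudocounts (0.1 and 5), 2 other filters, 3 other scalings, no intensity trend, a replicate block and leaving out each library.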

Additional observations from a re-analysis of the deposited data

How the results depend on the processing

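Over all genes, 13 passed the test without labelled knockdown replicate 3, 2 without wild-type replicate 2 and 0 under the other alternatives. A count of 0 is therefore not particular to the genes followed here. The count of members past the test was 0 and that of further pathway genes 0 under all 15 alternatives. The Slc20a1 difference kept its sign under each, at 0.71 to 0.95 without any 1 library and 0.71 to 0.90 under the others, lowest where each library summed to 1000000, which moved the median of all genes by -0.13. That scaling put Slc20a2 at -0.03, Enpp1 at -0.13 and Mgp at -0.03. Leaving out labelled knockdown replicate 1 put Slc20a2 at -0.02 and the difference in the log2 ratio of Enpp1 to Alpl at 0.02, where leaving out other libraries gave values down to -0.58. Across omitted libraries Slc20a2 ran from -0.02 to 0.31, Xpr1 from -0.23 to -0.02, Enpp1 from -0.13 to 0.18, Nt5e from -0.35 to -0.08, Alpl from 0.04 to 0.63 and Mgp from -0.08 to 0.45; Enpp1 was at -0.13 without labelled knockdown replicate 2, -0.12 without wild-type replicate 1 and -0.03 without wild-type replicate 2, and Mgp at -0.04, -0.03 and -0.08 without labelled knockdown replicate 2 and wild-type replicates 1 and 3. The cause was not tested. The enzymes of inositol pyrophosphates and their precursors were chosen for this check after the values were seen. Of those tested, 5 or 6 did not overlap on the higher side under all alternatives but the rescaling to 1000000 (2). The share of all genes that did so moved too. It was 12.6% in the main fit, 15.9% to 21.6% with a library left out, 20.1% without mitochondrial genes and 5.92% under that rescaling. With fewer libraries groups separate more easily, so the steady count does not show stability. With the replicate number as a replicate block, 0 members passed. Same-numbered libraries correlated in their deviations at 0.056, 0.061 and 0.143, so the numbers were not taken to pair them. Rounding steps near 1 limit genes as low as Nt5e.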

Other observations

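Mesothelial markers summed to 80.9, 119 and 103 in wild type and to 18.7, 31.5 and 169 in labelled knockdown replicates 1, 2 and 3. Enpp2, which encodes autotaxin, a relative of ENPP1 that makes a lipid signal and is abundant in fat, measured 13.6, 20.7 and 36.1 across wild type and 2.84, 3.73 and 26.9 across labelled knockdown. It was low in the same 2 libraries as the adipocyte and mesothelial sums, and the groups overlapped (limma adjusted p = 0.369). Neutrophil markers summed to 80.3, 35.2 and 120.3 against 28.4, 45.0 and 70.9, and B cell markers to 2577, 1967 and 3363 against 539, 508 and 2106. By value, fibroblast markers, at 14204 to 16448 against 10336 to 15772, overlapped between the groups. Mural markers, at 1895 to 2285 against 1635 to 1902, overlapped only narrowly. These sums were not put in steps, and so narrow an overlap depends on the scale of the libraries.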
